A study of Rattus norvegicus with 7 samples.

Results

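Focal YBX1 peaks are the short regions, under 600 bp from start to end, in the broad peak lists that the authors deposited for chromatin immunoprecipitation and sequencing (ChIP-seq) of YBX1 in A10 cells. They were chosen by length on the assembled chromosomes (1 to 20, X and Y), and they number 677 of the 998 YBX1 peaks there, of 1031 YBX1 peaks in all and of 6123 peaks in the 5 lists of the series. A10 is an established rat line of vascular smooth muscle from the thoracic aorta. The 3 YBX1 lists come from cells labelled ART, read as cells overexpressing FLAG-tagged Arteridin, from cells labelled PSR, read as cells overexpressing the ATT mutant of lncPSR, and from cells labelled NC, read as the untreated condition that the design text names. The Phenotype Switching Regulator gene gives rise to both, Arteridin as its protein and lncPSR as its non-coding transcript. All 3 groups are the same cell line, plasmids were introduced with a lipid reagent, and the labels do not say whether NC cells received an empty plasmid. The titles of the ART and PSR samples begin with X, whereas B opens the titles of NC and of the YBX1 input; no label explains this difference. Each condition had 1 library, so no difference between lists has a replicate check and no test between conditions was made.

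YBX1, the Y-box binding protein 1, is a cold-shock domain protein that binds DNA and RNA. It was named for binding the Y-box, a promoter element built on an inverted CCAAT sequence, and it also packages messenger RNA in the cytoplasm and affects its translation and stability. In ChIP-seq a peak is a stretch of genome where sequenced fragments from the antibody pull-down stack above the level expected from the input, and a broad peak joins neighbouring stretches into 1 region. A short broad peak is therefore close to a single stack of fragments. The files use the sequence names of the rat assembly rn6 (Rnor_6.0); no genome or gene annotation of that assembly was used here, so the peaks are given by position, without genes or bases.

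Focal peaks made up most of each list. ART had 377 focal peaks among 589 on assembled chromosomes (64.0%, 95% Wilson interval 60.1 to 67.8), PSR had 223 of 330 (67.6%, 62.3 to 72.4) and NC had 77 of 79 (97.5%, 91.2 to 99.3). These intervals, like those below, cover counting error only. Summed over focal peaks, ART covered 126 kb, PSR 74.1 kb and NC 23.0 kb, or 30.7%, 38.5% and 90.1% of the bases in all peaks of each list on these chromosomes.

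Most focal peaks lay near the shortest length in their list. Lengths ran from 234 to 596 bp in ART with a median of 307 bp, from 232 to 593 bp in PSR with a median of 295 bp, and from 242 to 592 bp in NC with a median of 284 bp. Under 300 bp were 179 ART peaks (47.5%), 117 PSR peaks (52.5%) and 50 NC peaks (64.9%). In NC, 76 of the 77 were under 400 bp.

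**Figure D1:**
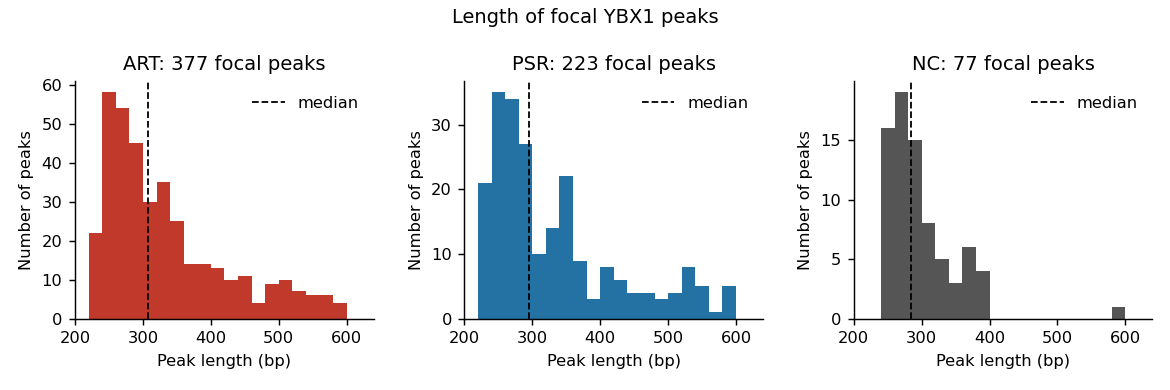
Histograms of the length in bp (x axis, bins of 20 bp) of the focal peaks of ART, PSR and NC, with the number of peaks on the y axis and the median as a dashed line. All 3 lists crowd at the short end, with medians of 307, 295 and 284 bp, and NC has a single focal peak above 400 bp.

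The limit of 600 bp did not fall at a break in the ART and PSR lengths. In ART the longest focal peak, chr6:138906248-138906843, had 596 bp and a fold of 3.88, and the shortest peak outside the rule, chr14:46670264-46670863, had 600 bp and a fold of 2.59. In PSR the nearest peaks on either side had 593 bp (chr1:103841096-103841688, fold 4.48) and 609 bp (chr3:72864601-72865209, fold 4.92). In NC they had 592 bp (chr11:33176507-33177098, fold 3.77) and 996 bp (chr4:181484415-181485410, fold 4.20). Length chose the members, so these values only describe the choice.

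Fold here is the authors' enrichment over the expected level, averaged over the peak by their peak caller, and −log10 q is the caller's significance after correction for many positions. Both are the caller's own values for each peak, and they depend on the background of each library. Where partners of 2 lists are given side by side, no change between conditions can be read from them. The focal peaks had a median fold of 4.53 for ART, 4.60 for PSR and 3.81 for NC, and the middle of each list was narrow, with quartiles of 4.20 and 4.98, 4.34 and 4.996, and 3.76 and 3.82. The median −log10 q was 2.17, 2.02 and 1.40. Of the ART focal peaks, 222 (58.9%) had a −log10 q of 2 or more, against 58.1% of all ART peaks on assembled chromosomes; the figures were 115 (51.6%) against 51.5% for PSR and 16 (20.8%) against 21.5% for NC. A value of 5 or more was found at 29 ART focal peaks (7.69%, against 8.83% of all), 12 PSR ones (5.38%, against 7.88%) and 3 NC ones (3.90%, against 3.8%). The whole lists include the focal peaks; among wide peaks alone, 23 of 212 in ART (10.8%, 7.34 to 15.8), 14 of 107 in PSR (13.1%, 7.96 to 20.8) and 0 of 2 in NC had 5 or more.

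Many weak focal peaks of NC carried the same value, whereas few did in ART and PSR. In NC, 48 of the 77 focal peaks (62.3%) had the identical −log10 q of 1.40, and only 30 different values occurred. The most common value was shared by 17 of 377 peaks in ART (1.69) and by 12 of 223 in PSR (1.38). Different values numbered 360 in ART and 212 in PSR. At the focal peaks where the fold and p-value could be solved for a whole number of stacked fragments, 20 in NC, 23 in ART and 11 in PSR, the number was 3 in all 20 NC peaks. It was 5 in 19 of the ART peaks, 6 in 1 and 7 in 3, and it was 5 in 9 of the PSR peaks and 8 in 2. The solved peaks are those of even height, which favours low stacks. Their lowest expected level, taken as the genome background of the library, was 0.362 fragments in ART and 0.380 in PSR but 0.048 in NC. Deeper libraries and longer fragments raise this background, so library and condition cannot be told apart in any count that sets NC beside the other lists.

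Focal peaks were mostly far from any other peak of their list. The median gap to the nearest other peak of any length was 1.73 Mb in ART, 3.71 Mb in PSR and 13.8 Mb in NC. A gap of at least 100 kb, or no other peak on the chromosome, was found for 303 ART focal peaks (80.4%, 76.1 to 84.1), against 72.2% of all ART peaks. It was found for 190 PSR focal peaks (85.2%, 79.9 to 89.3), against 72.7% of all PSR peaks, and for all 77 NC focal peaks (100%, 95.2 to 100), as for 100% of all NC peaks. The wide peaks of the same lists, those of 600 bp or more, were isolated in 122 of 212 cases in ART (57.5%, 50.8 to 64.0) and in 50 of 107 in PSR (46.7%, 37.6 to 56.1). The focal and wide intervals did not overlap in ART or in PSR, but peaks within a list are not replicates and no test was made. A list with more peaks has shorter gaps by number alone, and the order NC, PSR, ART is also that of the list sizes.

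**Figure D2:**
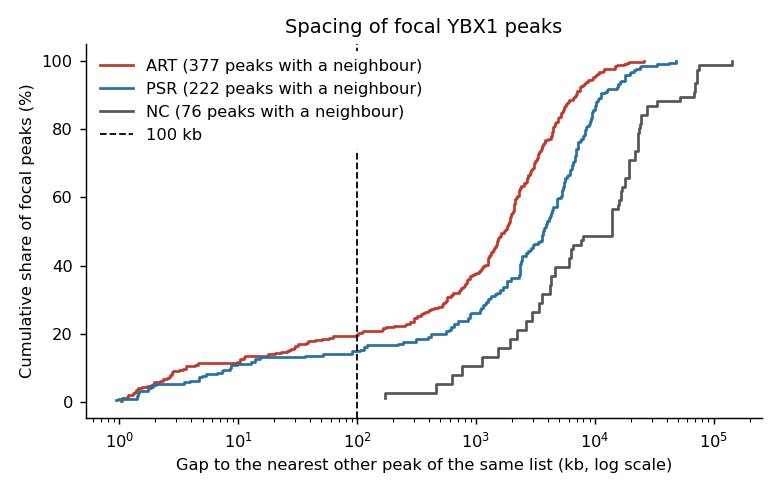
Cumulative share of focal peaks in percent (y axis) by the gap in kb to the nearest other peak of the same list (x axis, log scale), with 100 kb as a dashed line; ART has 377 peaks, PSR 222 and NC 76 with a neighbour on their chromosome. ART and PSR have a flat lower arm below 100 kb that holds 74 and 33 peaks, while the NC curve begins at 171 kb.

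Below 100 kb the gaps were mostly short. In ART 44 focal peaks (11.7%) lay within 10 kb of another listed peak and 30 (7.96%) between 10 and 100 kb, while 236 (62.6%) lay at least 1 Mb away. In PSR 25 (11.2%) lay within 10 kb, 8 (3.59%) between 10 and 100 kb and 165 (74.0%) at least 1 Mb away. In NC none lay within 100 kb and 69 (89.6%) were at least 1 Mb from the next peak. Gaps at 10 kb and 1 Mb were counted for focal peaks only, so these shares have no reference over all peaks.

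The closest pair of focal ART peaks was chr19:5820588-5821157 and chr19:5822209-5822723, 1.05 kb apart, with folds of 3.74 and 2.72. It was followed by chr9:41716303-41716606 and chr9:41717901-41718178, 1.29 kb apart with folds of 4.90 and 5.14, and by chr1:180882143-180882441 and chr1:180883830-180884345, 1.39 kb apart with folds of 2.17 and 1.82. The closest focal pair in PSR, chr1:180882174-180882438 and chr1:180883849-180884341, 1.41 kb apart, overlapped that same chromosome 1 pair of ART. The closest NC pair, chr12:39708671-39709004 and chr12:39880482-39880731, was 171 kb apart.

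The focal peaks with the widest gaps in each list were found in that list alone, with 1 exception. In ART they were chr8:5640837-5641120, 25.8 Mb from the next ART peak (fold 5.51), chr16:2404626-2404882, 19.3 Mb (5.12), and chr2:263630489-263630740, 18.8 Mb (4.36). None of these 3 overlapped PSR or NC. In PSR the most isolated was chr4:6879299-6879604, 47.6 Mb from the next PSR peak, whose fold was 2.02 and whose −log10 q was 4.34, and this peak did overlap an ART peak. The next were chr11:86052046-86052367 (42.1 Mb, fold 4.33) and chr15:111218989-111219262 (33.1 Mb, fold 4.90), which overlapped neither other list. In NC chr2:38545385-38545760 lay 141 Mb from the next peak, with a fold of 3.82, and was in neither other list. Over all focal peaks, too, most overlapped no other YBX1 list. The shares were 89.9% for ART, 79.8% for PSR and 92.2% for NC. The named peaks alone therefore do not show that the widest gaps go with being unshared.

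Crowded focal peaks had both focal and wide neighbours. Of the 74 ART focal peaks that were not isolated, 62 had another focal peak within 100 kb and 41 had a wide one. Of the 33 such PSR peaks, 23 had a focal and 29 a wide neighbour. Linking all peaks of a list across gaps under 100 kb gave 3 groups with at least 3 focal peaks in ART, holding 22 focal peaks, and 3 in PSR, holding 17. In ART the groups were chr1:180644615-181077243 with 9 focal among 17 peaks and a median focal fold of 1.82, chr13:33488056-33820432 with 7 of 12 and a fold of 2.05, and chr14:46517738-46685841 with 6 of 30 and a fold of 3.41. In PSR they were chr14:46522468-46682855 with 9 of 20 (fold 2.88), chr1:180644649-180893583 with 5 of 10 (1.84) and chr1:11904227-11972609 with 3 of 10 (2.96). These median folds all lay below the list medians of 4.53 and 4.60.

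For most chromosomes the interval of the share of focal peaks took in the chromosome's share of length. Focal peaks were found on all 22 assembled chromosomes in ART and PSR and on 21 in NC, which had none on Y. Per 100 Mb, with chromosome ends set at the furthest listed peak, the density of focal peaks was 13.9 for ART, 8.24 for PSR and 2.84 for NC. Chromosome 1 held 58 ART peaks (15.4%, 12.1 to 19.4) and 37 PSR peaks (16.6%, 12.3 to 22.0), both above its 10.4% of the summed length, and 10 NC peaks (12.99%, 7.21 to 22.3). Among isolated ART peaks alone the chromosome 1 share was 13.5% (10.1 to 17.8), an interval that takes in the share of length.

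Among the other autosomes the interval missed the share of length at 3 chromosomes in ART and 1 in NC; with an interval for every chromosome of 3 lists, some miss it by counting error alone. In ART, chromosome 11 held 21 focal peaks (5.57%, 3.67 to 8.37) against 3.27% of the length, while chromosomes 3 and 5 held 13 (3.45%, 2.03 to 5.81) and 14 (3.71%, 2.22 to 6.14) against 5.83% and 6.41%. Over all ART peaks the shares of chromosomes 11, 3 and 5 were 4.07%, 3.90% and 3.74%. PSR had 4 focal peaks on chromosome 11 (1.79%, 0.700 to 4.52). The ART interval for chromosome 11 also took in its share of length once only isolated peaks were counted (14 peaks, 4.62%, 2.77 to 7.61). In NC, chromosome 12 held 6 peaks (7.79%, 3.62 to 15.98) against 1.70% of the length, where ART also had 6 (1.59%) and PSR 1 (0.448%). Its share over all NC peaks was 7.59%. The share on Y, where ART and PSR had 1 peak each, rests on single peaks.

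**Figure D3:**
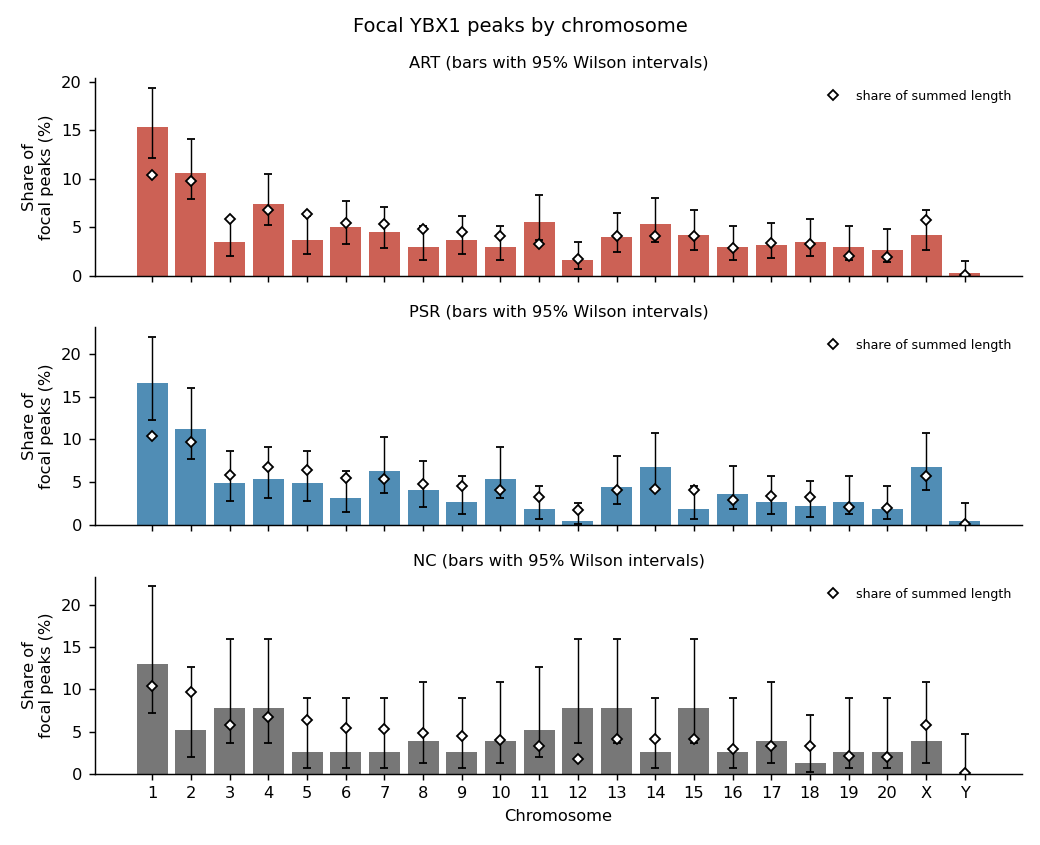
Share of the focal peaks of ART, PSR and NC in percent (y axis) on each chromosome (x axis); bars carry 95% Wilson intervals and diamonds mark the chromosome's share of the summed length. Chromosome 1 stands above its diamond in ART (15.4% against 10.4%) and PSR (16.6%), and chromosome 12 does so in NC (7.79% against 1.70%). Over all peaks of each list these shares were 16.6%, 18.2% and 7.59%.

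Most focal peaks were found in 1 list only. Merging overlapping focal peaks of the 3 lists gave 642 sites, of which 346 came from ART only, 192 from PSR only and 72 from NC only. ART and PSR shared 27, ART and NC 1, PSR and NC 1, and all 3 lists shared 3. Counting partners of any length, 339 ART focal peaks (89.9%), 178 PSR focal peaks (79.8%) and 71 NC focal peaks (92.2%) overlapped no peak of another YBX1 list. Most peaks of the whole lists were unshared too. Of all ART peaks 15.8% overlapped PSR and 1.02% NC, and of all PSR peaks 30% overlapped ART and 1.82% NC. Of all NC peaks 7.59% overlapped ART and 7.59% PSR.

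Recurrence between ART and PSR was partial. Of the ART focal peaks, 37 (9.81%, 7.20 to 13.2) overlapped a PSR peak by at least 1 bp, against 15.8% of all ART peaks and 56 of 212 wide ones (26.4%, 20.9 to 32.7). Of the PSR focal peaks, 45 (20.2%, 15.4 to 25.9) overlapped an ART peak, against 30% of all PSR peaks and 54 of 107 wide ones (50.5%, 41.1 to 59.8). A longer peak meets another more easily, and the part of length in these shares was not tested. In 30 cases both partners were focal, which is 7.96% of the ART and 13.5% of the PSR focal peaks. Another 7 ART focal peaks met only a wide PSR peak, and 15 PSR focal peaks met only a wide ART peak, 7 of them in the chromosome 14 group.

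Near misses between ART and PSR were few. Of the 340 ART focal peaks without an overlap, 15 (4.41%) lay within 10 kb of a PSR peak and 32 (9.41%) within 100 kb, and the median distance was 2.75 Mb. Of the 178 PSR focal peaks without an overlap, 5 (2.81%) lay within 10 kb of an ART peak and 13 (7.30%) within 100 kb, with a median of 1.64 Mb. Distances to the other list were taken for focal peaks only, so these shares have no reference over all peaks.

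Recurrence with NC was rare on both sides. In ART 4 focal peaks (1.06%, 0.413 to 2.70) overlapped an NC peak, against 1.02% of all ART peaks, and in PSR 4 did (1.79%, 0.700 to 4.52), against 1.82% of all. Of the NC focal peaks, 5 (6.49%, 2.81 to 14.3) overlapped ART and 5 overlapped PSR, in both cases against 7.59% of all NC peaks. Only 1 of the 61 NC focal peaks whose −log10 q was under 2 was in either other list, namely chr12:2626407-2626766 with a fold of 3.83, which overlapped the ART peak chr12:2626290-2626653 (fold 5.10).

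Focal peaks of ART and PSR that overlapped had close centres. Short peaks that share bases cannot lie far apart, so part of this closeness comes from the choice. The centres of the 30 pairs were 0.5 to 92 bp apart, with a median of 33 bp. The overlap ran from 208 to 506 bp with a median of 274 bp, which was in the median 90.9% of the ART and 93.6% of the PSR peak. In 29 of the 30 pairs it covered at least 50% of both peaks. The 4 pairs of ART and NC had centres 3 to 115 bp apart and the 4 of PSR and NC 7.5 to 122 bp.

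Recurring focal peaks were found at all folds, but their share differed between bins of fold. In bins chosen after the values were seen, 16 of the 40 ART focal peaks with a fold under 3 overlapped PSR (40%, 26.3 to 55.4), but 3 of 30 with a fold of 3 to 4 did (10%, 3.46 to 25.6), 7 of 218 with 4 to 5 (3.21%, 1.56 to 6.48) and 7 of 77 with 5 to 6 (9.09%, 4.47 to 17.6). Of the 12 with a fold of at least 6, 4 did (33.3%, 13.8 to 60.9). In PSR, 24 of 28 peaks with a fold under 3 overlapped ART (85.7%, 68.5 to 94.3), 8 of 134 with 4 to 5 (5.97%, 3.06 to 11.3) and 3 of 43 with 5 to 6 (6.98%, 2.40 to 18.6). The thin bins of PSR were 3 to 4, with 5 of 6, and at least 6, with 5 of 12. Most focal peaks had folds of 4 to 6, 295 in ART and 177 in PSR, and 14 and 11 of these recurred. The bins were counted for focal peaks only, so whether wide peaks differ by fold in the same way is not known.

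**Figure D4:**
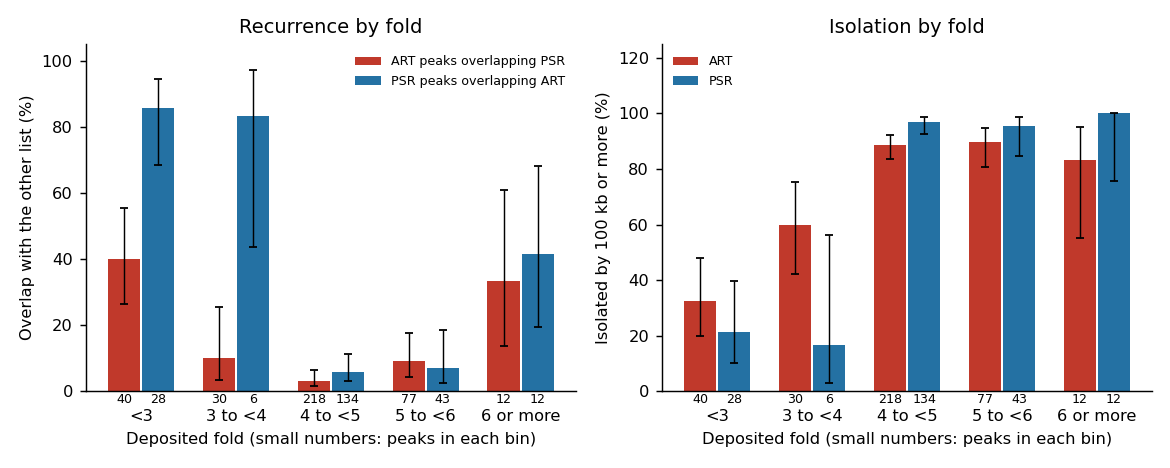
Left, share in percent of focal ART peaks overlapping PSR and of focal PSR peaks overlapping ART (y axis) by deposited fold (x axis, 5 bins); right, share isolated by 100 kb or more; bars carry 95% Wilson intervals and the small numbers give the peaks in each bin. Overlap is highest in the bin below 3 (40% and 85.7%) and low from 4 to 5 (3.21% and 5.97%), where 88.5% and 97.0% of peaks are isolated.

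The same fold ranges differed in spacing. The 40 ART focal peaks with a fold under 3 had a median gap of 11.3 kb to the next ART peak and 13 were isolated (32.5%, 20.1 to 48.0). Those with a fold of 4 to 5 had a median gap of 1.91 Mb and 193 of 218 were isolated (88.5%, 83.6 to 92.1). In PSR the 28 peaks under 3 had a median gap of 7.0 kb with 6 isolated (21.4%, 10.2 to 39.5), and 130 of the 134 with 4 to 5 were isolated (97.0%, 92.6 to 98.8), with a median gap of 4.80 Mb. In NC, 59 of the 77 focal peaks had a fold of 3 to 4 and 1 had a fold under 3. Spacing by fold was also counted for focal peaks only, so it cannot be called particular to them.

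A low fold did not always mean a low −log10 q. Over all focal peaks the 2 values rose together, with a Spearman correlation across peaks of 0.455 in ART (377 peaks) and 0.417 in PSR (223 peaks), given as a description since peaks are not replicates and both values come from the same stacks. At the top the order was different. In ART the 5 focal peaks with the highest −log10 q had folds of 1.64 to 2.35, led by chr1:180893097-180893589, where the fold was 2.09 and the −log10 q 164. They were followed by chr7:22328426-22328679 (1.97 and 127) and chr1:180896778-180897025 (2.35 and 102). In PSR the first 3 were chr1:180893102-180893583 (1.95 and 135), chr7:22328427-22328671 (1.89 and 114) and chr7:22323441-22323797 (1.57 and 42.2). The fourth, chr1:180705683-180706196, also had a low fold (1.75 and 31.6), whereas the fifth, chr6:9464655-9465087 (14.02 and 27.3), had the highest fold of the PSR focal peaks. Of the 29 ART focal peaks whose −log10 q was 5 or more, 19 overlapped PSR (65.5%, 47.3 to 80.1), and of the 155 under 2, 2 did (1.29%, 0.355 to 4.58). In PSR 11 of 12 at 5 or more overlapped ART (91.7%, 64.6 to 98.5), and 12 of 108 under 2 did (11.1%, 6.47 to 18.4). Overlap by −log10 q was counted for focal peaks only, so it cannot be called particular to them.

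**Figure D5:**
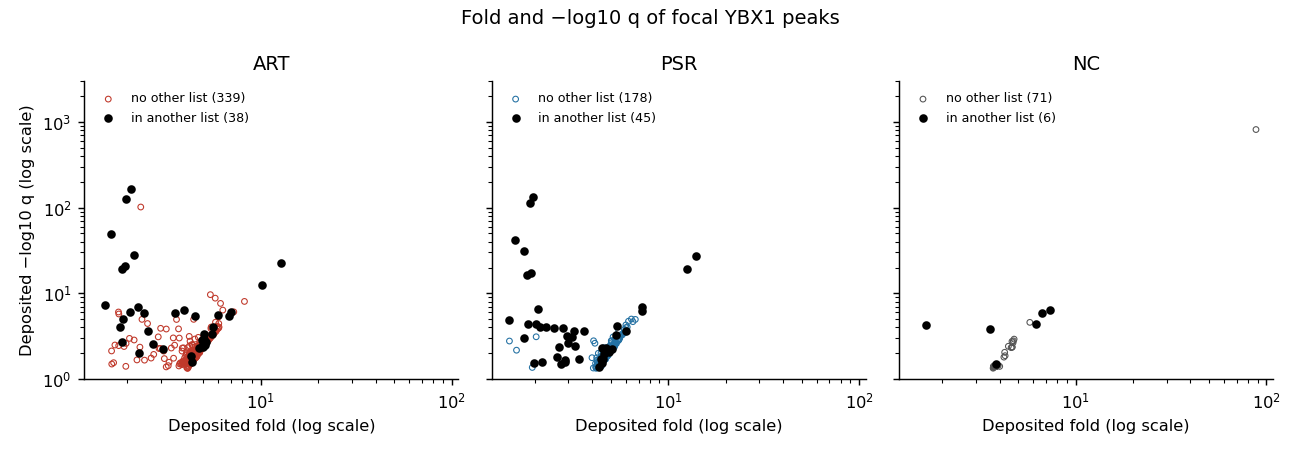
Deposited −log10 q (y axis, log scale) against deposited fold (x axis, log scale) of each focal peak in ART, PSR and NC; filled points overlap a peak of another YBX1 list (38, 45 and 6 peaks) and open points overlap none (339, 178 and 71). ART and PSR show 2 arms, one in which −log10 q grows with fold and one of low fold that reaches a −log10 q of 164 and 135.

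The expected level behind the low folds can be solved. For a Poisson count the fold and −log10 p of a peak together fix the expected level of stacked fragments. Broad peaks hold averages, so this level is approximate. Where another level below the genome background also met both values, the higher was taken, since the caller takes no level below the background. At the 40 ART focal peaks with a fold under 3 the level was 7.33 to 857 fragments, 20.3 to 2367 times the background, with a median of 99.7 times. At the 28 such PSR peaks it was 6.80 to 910, or 17.9 to 2399 times, with a median of 89.6 times. A called peak of low fold can solve only to a raised level, so these levels describe the choice of fold and are no separate result. Such peaks made up 10.6% of the ART and 12.6% of the PSR focal peaks.

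At low-fold sites that recurred, the expected level relative to background could be set side by side. This is the level that the fold is measured against, not the stack of YBX1 fragments. At the 13 pairs where both the ART and the PSR peak had a fold under 3, the PSR level relative to its background was 0.967 to 1.14 times the ART one, with a median of 1.01. At chr1:180893097-180893589 it was 2367 times the background in ART, 2399 in PSR and 2317 in NC, where the peak was chr1:180893236-180893481 with a fold of 1.64. The labels show 1 input library for YBX1, and no source used here says whether all 3 lists were called against it. If they were, these relative levels would be alike by construction, so their likeness is no separate result about the sites. The part of the input in the recurrence of low-fold peaks was not tested.

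Apart from the low folds, 14 pairs of ART and PSR focal peaks had folds of at least 4 in both lists, and 13 of these were isolated by 100 kb or more in both. Isolation was common among all focal peaks of such folds, so it does not set the pairs apart. In the bins 4 to 5, 5 to 6 and at least 6 it was 88.5%, 89.6% and 83.3% in ART. In PSR it was 97.0%, 95.3% and 100%. The highest was chr6:9464648-9465060 in ART and chr6:9464655-9465087 in PSR, with folds of 12.7 and 14.02 and centres 17 bp apart, 1.82 and 5.46 Mb from the next peak. Next came chr20:4368704-4369054 and chr20:4368672-4369001 (10.2 and 7.25, 42.5 bp apart), chr7:3123382-3123693 and chr7:3123466-3123793 (6.95 and 7.29, 92 bp apart) and chr5:93453495-93453843 and chr5:93453416-93453780 (6.82 and 6.01, 71 bp apart). These 4 sites led the recurring focal peaks of ART by fold. The remaining 10 pairs had ART folds of 4.74 to 5.94.

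Others of the 8 recurring ART focal peaks with the highest fold were chr16:55035358-55035747 (5.94, with 4.48 at the PSR partner), chr10:65963903-65964206 (5.61, with 5.33) and chr1:198653044-198653379 (5.56, with 4.88). The last, chr20:1047160-1047516 (5.17), met a wide PSR peak, chr20:1046790-1047756, with a fold of 4.29. The peaks with the highest fold that did not recur were chr1:162984532-162985110 (8.21) and chrX:88678772-88679040 (7.22) in ART, and chr9:61668500-61668855 (6.73) in PSR. The lists give no value where a peak was not called, so the level of such sites in the other libraries is unknown.

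Sites that NC shared with both other lists numbered 4 among its focal peaks, and their NC folds were 1.64 to 7.32. Besides the chromosome 1 site they were chr6:9464652-9465050 (7.32), chr10:84915490-84915775 (6.70) and chr7:3123313-3123702 (6.21). The NC peaks on chromosomes 6 and 7 lay 3 and 30 bp from the centres of the ART peaks. At chromosome 10 the PSR partner, chr10:84915404-84915876, was focal with a fold of 12.6 and a centre 7.5 bp away, but the ART partner, chr10:84915178-84915868, was 691 bp long and so outside the rule. One more NC focal peak, chr4:77447758-77448077 (3.54), overlapped PSR alone, at a wide peak of 650 bp. These sites were 4 of the 6 NC focal peaks found in any other list.

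The NC focal peaks with the highest fold in the list were not all among these. The first, chr1:265469321-265469626, had a deposited fold of 88.2, its −log10 q was 815, and it was in neither ART nor PSR. It lay 13.9 Mb from the next NC peak, chr1:251614041-251614330, which had a fold of 5.76 and was in neither list either.

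Overlap of focal YBX1 peaks with Arteridin peaks came to 3 sites. The 2 Arteridin lists, narrow peaks from A10 cells with (ORF) and without (CTR) Arteridin overexpression, overlapped 2 of the 377 ART focal peaks (0.531%, 0.146 to 1.91, for each list), 0 of the 223 PSR focal peaks (0 to 1.69%) and 1 of the 77 NC focal peaks (1.30%, 0.230 to 6.996). Over all peaks of a list the shares for ORF and CTR were 1.19% and 0.679% in ART, 0.606% and 0.303% in PSR and 1.27% in both cases in NC, counts too low to set the focal peaks apart. The ART peaks were chr6:2672278-2672676 with a fold of 3.12, which met ORF peaks with folds of 4.76 and 4.04 and CTR peaks with 5.21 and 5.79, and chr15:22207695-22208147 with a fold of 2.46, which met an ORF peak with 8.08 and CTR peaks with 5.93 and 6.67. Neither overlapped PSR or NC. The NC peak was the one on chromosome 1 with the highest fold, where the Arteridin folds were 36.8 in ORF and 15.7 in CTR.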

How the data were processed

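The members and the lists compared were chosen with earlier results of these data known. MACS2, Bowtie2, HOMER, SAMtools and FastQC are named in the submitters' processing notes; no source used here gives versions, thresholds, duplicate handling, depth or genome build. The authors made a separate peak list for every ChIP library. A deposited row holds, from the peak caller, a score (10 times the −log10 q, cut to a whole number), a fold ratio, a −log10 p and a −log10 q. The score was not used further.

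Groups came from sample titles. Starts were moved to counting from 1. Peaks that shared at least 1 bp counted as overlapping, with counts matching bedtools 2.31.1. Shares carry 95% Wilson intervals (scipy 1.17.1). Stacked fragments were solved from fold = (fragments + 1) / (level + 1) and the Poisson p, within 0.0001 in −log10 p. RefSeq chromosome accessions in the Arteridin lists were read in chromosome order. Functions were tested on simulated data.

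Named peaks were, per list, the 5 with the highest fold and −log10 q, the 3 most isolated, the 3 closest pairs, those nearest 600 bp, those in all lists, and the 8 recurring ART peaks with the highest fold, of which the text gives part. Fold bins, linked groups and levels were added after the values were seen.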

Additional observations from a re-analysis of the deposited data

How the results depend on the processing

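Of 57 other settings, 46 left the result within its interval (for counts, within 1.5 times). When peaks needed a −log10 q of 2 or more, the focal peaks numbered 222 in ART, 115 in PSR and 16 in NC, and recurrence rose to 28.7% for PSR in ART, 25% for NC in ART and 31.2% for NC in PSR; fewer peaks pass by construction. With a gap of at least 500 kb the isolated share was 72.1% in ART and 94.8% in NC, and with the gap taken to focal peaks only it was 89.7% in PSR. Recurrence of PSR in ART was 14.8% with reciprocal overlap of 50% and 13.5% with focal partners only. A fold of at least 3 in every list, chosen after the data were seen, gave isolated shares of 86.6% in ART and 94.9% in PSR and recurrence of 5.93% for ART in PSR and 10.8% for PSR in ART. A length limit of 500 bp moved no count, isolated share or recurrence beyond these bounds, and one of 400 bp, run for the counts only, moved none of them. Shares of gene lists and motifs were not run, since no genome or annotation of the files' build was used. No paired analysis was possible because there was a single library per condition. Depth per library is unknown, and the 20 solved NC peaks rest on 3 fragments each.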
